A study of Homo sapiens with 8 samples.

Results

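Keratins and neuronal intermediate filaments are 10 genes chosen by symbol (KRT8, KRT18, KRT19, KRT10, VIM, NES, INA, NEFL, NEFM and NEFH), and all 10 were found among the 57500 genes of the deposited count table. HEK293T is a cell line from human embryonic kidney, transformed with adenovirus DNA, that also carries the SV40 large T antigen. The cells were treated for 48 h with 100 µM DZNep (3-deazaneplanocin A, an adenosine analog that inhibits S-adenosylhomocysteine hydrolase and with it the methyltransferases that use S-adenosylmethionine), or with vehicle (Control), and each group holds 4 replicates. The medium is DMEM in the sample labels and RPMI in the methods text, and no other agent or allele distinguishes the groups. RNAseq counted reads on genes in each library, and each value below is a count divided by the size factor of its library (normalized count) unless another scale is named.

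Intermediate filaments are rope-like polymers of the cytoskeleton, and their subunits are known for marking cell type. Keratins are the filaments of epithelia and assemble only as pairs of a basic (type II) and an acidic (type I) chain. Vimentin is the type III filament of mesenchymal cells and of most cultured lines, nestin is a type VI filament of progenitor cells, and the neurofilament chains with alpha-internexin are the type IV filaments of neurons.

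In DZNep-treated cells the basic keratin KRT8 was 5.44-fold higher, and its acidic partner KRT18 was 1.77-fold higher. The heavy neurofilament chain NEFH was 2.13-fold higher, while the progenitor filament NES and the neuronal filament INA (alpha-internexin) fell by 0.81 and 0.63 on the log2 scale. The changes of KRT18 and INA were less firm. Of 16 alternative fits, they passed an adjusted p of 0.05 in 9 and 6, against 16 for KRT8 and NEFH and 15 for NES. The log2 fold changes of the abundant members VIM, NEFL and KRT10 lay between 0.11 and 0.14 and did not pass the test, nor did that of NEFM. KRT19 was at 2 counts or fewer in every library except DZNep replicate 2. In bulk RNA, fewer cells that make a transcript and less of that transcript per cell cannot be told apart.

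The 8 libraries held between 25043058 and 44902779 counts, and mitochondrial transcripts took between 3.02% and 13.7% of a library. DZNep replicate 2 stood apart from the other 7 libraries. With a limit of at least 30 counts and a 10-fold gap to every other library, set after the data were seen, 15 genes were higher and 13 were lower in DZNep replicate 2, and the number was 0 in each direction in each of the other 7 libraries. KRT19 was 1 of the 15. Results of the members, and counts over gene lists, are therefore also given without that library where they changed. The kidney label was read against 12 kidney tubule markers. Of these, UMOD and SLC22A6 had 0 counts in every library and CDH16 had at most 1. PAX2, a transcription factor of the kidney, averaged 343 ± 33.8 in Control and 240 ± 36 in DZNep-treated cells (SD, n = 4). Higher means were found for LRP2 (614 ± 406 and 413 ± 170) and EMX2 (507 ± 198 and 651 ± 121), and neither passed the test.

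Differential expression was tested with edgeR's quasi-likelihood test over the 19171 genes that passed the filter on low counts, with Benjamini-Hochberg adjustment. A gene passed the test at an adjusted p under 0.05, and passed both thresholds when its log2 fold change was also over 1 in size, the rule of the authors' own test. Of the 10 members, 9 were tested, and KRT19 was removed by the filter on low counts. Both thresholds were passed by 2 members that were higher (KRT8 and NEFH), where 10.6% of all genes tested did so. None (0) was lower past both thresholds by edgeR or by DESeq2, although 2 were lower at an unadjusted p under 0.05, and the share over all genes was 13.5%. On the adjusted p alone, 3 members were higher (KRT8, KRT18 and NEFH) and 2 were lower (NES and INA), and the shares over all genes were 19.1% and 21.8%. Every DZNep library exceeded every Control library for 2 members (KRT8 and NEFH) and was under every Control library for 2 (NES and INA), where 19.5% and 19.4% of all genes tested did so. No count over the 9 members was tested against these shares. The same shares, and a median log2 fold change of -0.03 over all genes tested, apply to the gene lists below. No list was tested against them.

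**Figure D1:**
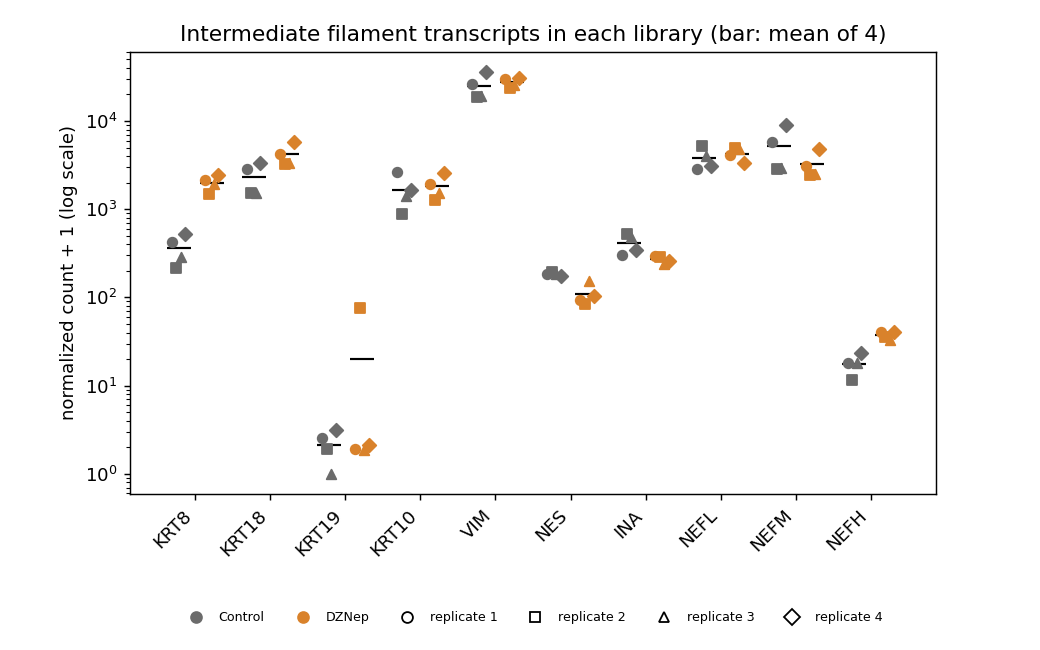
Normalized count + 1 (log scale) of each of the 10 filament genes in the 4 Control (grey) and 4 DZNep (orange) libraries, with a symbol for each replicate number and a bar at the mean of 4. The groups separate for KRT8, NES, INA and NEFH, and the KRT19 mean in DZNep-treated cells comes from replicate 2 at 74.1.

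KRT8 (ENSG00000170421, chromosome 12, 52897187 to 52949954, minus strand) encodes the basic chain of simple epithelial filaments. Its normalized counts were 425, 216, 283 and 521 in Control replicates 1 to 4, and 2139, 1484, 1940 and 2440 in DZNep replicates 1 to 4. Every DZNep library was above every Control library, and the lowest DZNep library was still well above Control replicate 4, the highest of its group. The mean rose from 361 ± 138 to 2001 ± 401 (SD, n = 4), a log2 fold change of 2.44 (SE 0.28, adjusted p = 0.000133 with edgeR). The exact two-sided permutation test gave p = 0.0286, the smallest that 4 against 4 libraries allow. Without DZNep replicate 2 the log2 fold change was 2.57 (adjusted p = 0.000379), and KRT8 passed both thresholds under each of the 16 alternatives tried.

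KRT18 (ENSG00000111057, chromosome 12, 52948871 to 52952906, plus strand) encodes the acidic partner of KRT8, and the genes stand next to each other on opposite strands with 525 exonic bases in common. It had normalized counts of 2857, 1537, 1533 and 3309 in Control and 4273, 3268, 3355 and 5798 in DZNep replicates 1 to 4. The groups overlapped because Control replicate 4 lay above DZNep replicate 2, but DZNep was higher than Control in 4 of 4 pairs of the same replicate number. The mean was 2309 ± 912 in Control and 4173 ± 1175 in DZNep-treated cells (SD, n = 4), with a log2 fold change of 0.83 (SE 0.29, adjusted p = 0.0453 with edgeR) and an exact permutation p of 0.0571. The rise was close to the limit of the test. It was lost in 6 of the 8 fits that left out a library, with an adjusted p of 0.054 without Control replicate 1, 0.0846 without Control replicate 2, 0.108 without Control replicate 3, 0.0846 without DZNep replicate 1, 0.0529 without DZNep replicate 3 and 0.108 without DZNep replicate 4. With the replicate number as a block, which removes the differences that libraries of the same number share, KRT18 was at 0.87 on the log2 scale (adjusted p = 2.23e-05).

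Whether the counting used strand is not given in the sources used here, so reads in the 525 shared bases of KRT8 and KRT18 could count for either gene or for none. These bases are part of 6881 exonic bases of KRT8 and 3069 of KRT18 (GENCODE annotation of GRCh38).

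KRT10 (ENSG00000186395, chromosome 17, 40818117 to 40822614, minus strand) encodes an acidic keratin of differentiating epidermis. In normalized counts, it stood at 2615, 887, 1426 and 1665 in Control and 1934, 1267, 1510 and 2573 in DZNep replicates 1 to 4. The groups overlapped over most of their range, with the highest value in Control replicate 1. The means were 1648 ± 722 and 1821 ± 572 (SD, n = 4), and the log2 fold change of 0.12 (SE 0.32) did not pass the test (adjusted p = 0.795, edgeR). Its sign turned, to -0.09, without Control replicate 2 and also without DZNep replicate 4.

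KRT19 (ENSG00000171345, chromosome 17, 41523617 to 41528308, minus strand) encodes an acidic chain of simple epithelia that lacks the tail domain. Its raw counts were 1, 1, 0 and 2 in Control and 1, 92, 1 and 1 in DZNep replicates 1 to 4. The transcript was thus at or near 0 in 7 libraries, and the 0 in Control replicate 3 allows up to 3 counts of 39505214. The means of 1.15 and 19.2 normalized counts that these values give in the 2 groups rest on a single library. The exact permutation test gave p = 0.543.

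**Figure D2:**
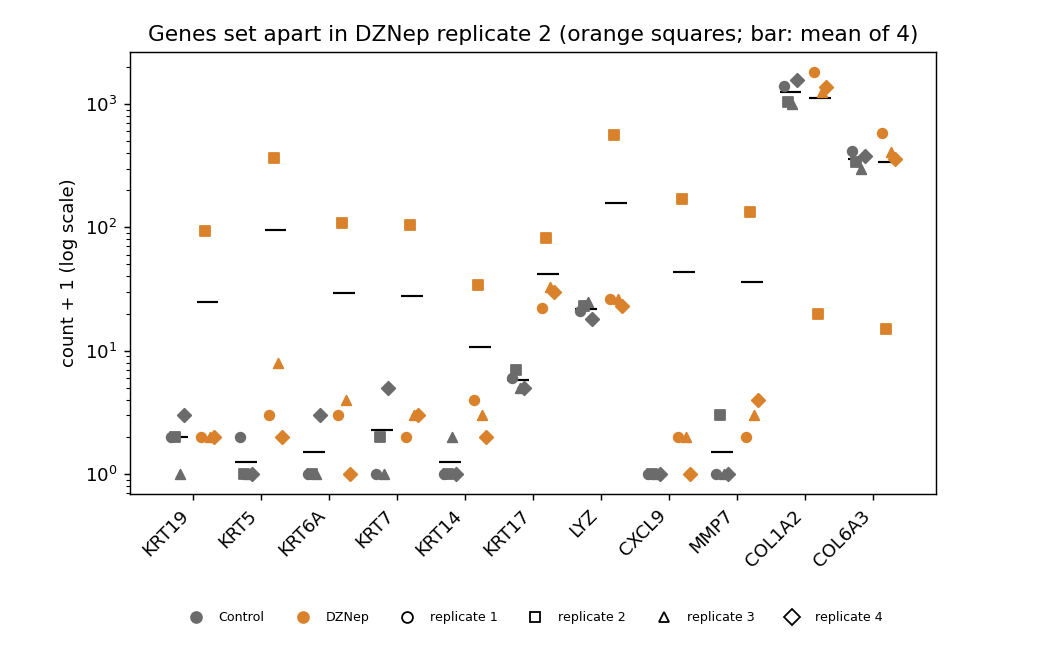
Count + 1 (log scale) of 11 genes in the 4 Control (grey) and 4 DZNep (orange) libraries, with a bar at the mean of 4. DZNep replicate 2 (orange square) is above the other 7 libraries for KRT19, KRT5, KRT6A, KRT7, KRT14, KRT17, LYZ, CXCL9 and MMP7, and below them for COL1A2 and COL6A3.

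KRT19 did not stand alone in DZNep replicate 2. KRT5, the basic keratin of basal epithelial cells, had 367 counts there and between 0 and 7 in the other 7 libraries. KRT6A, a keratin of stressed epidermis, had 108 against at most 3, and KRT7, a basic keratin of simple ducts, had 103 against at most 4. KRT8, KRT18 and KRT10 were not raised with them, since DZNep replicate 2 had the lowest KRT8, KRT18 and KRT10 of the DZNep group. The 15 genes that stood above also held immune genes, such as CXCL9 (169 against at most 1) and LYZ (559 against 17 to 25), and the 13 that stood below held COL1A2 (19 against 1002 to 1816) and COL6A3 (14 against 298 to 580). LYZ is also on a list of 8 blood cell markers. Of these, 5 were tested and 0 passed the test by edgeR or DESeq2 (1, LYZ, was higher at an unadjusted p under 0.05, with a log2 fold change of 2.52 that was 0.02 without DZNep replicate 2), their summed level was 8.66 to 14.1 CPM (counts scaled to a common library size) in Control and 9.85 to 17.2 in DZNep libraries, and HBB was at 0. CD3E, a T cell marker under the filter on low counts, had 0 counts in every Control library and 9, 21, 18 and 36 in DZNep replicates 1 to 4. Their part in the KRT19 value was not tested.

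VIM (ENSG00000026025, chromosome 10, 17228241 to 17237593, plus strand) encodes vimentin. The libraries gave it normalized counts of 26367, 18481, 19353 and 35819 in Control and 30281, 23594, 25406 and 30854 in DZNep replicates 1 to 4. The highest and the lowest library were both Control libraries. The means were 25005 ± 8027 and 27534 ± 3588 (SD, n = 4), and the log2 fold change of 0.11 (SE 0.23) did not pass the test (adjusted p = 0.733, edgeR). Without Control replicate 2 it was -0.01.

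NES (ENSG00000132688, chromosome 1, 156668763 to 156677407, minus strand) encodes nestin, a filament of neural and muscle progenitors that copolymerizes with vimentin. Its normalized counts were 185, 194, 185 and 174 in Control and 92.5, 82.2, 151 and 103 in DZNep replicates 1 to 4. The Control libraries were nearly alike, all DZNep libraries were below them, and DZNep replicate 3 was the closest. The mean went from 185 ± 8.08 to 107 ± 30.5 (SD, n = 4) and NES fell by 0.81 on the log2 scale (SE 0.22, adjusted p = 0.0136, edgeR), with an exact permutation p of 0.0286. The log2 fold change was -1.02 (adjusted p = 0.00437) without DZNep replicate 3, which passes both thresholds, and -0.72 (adjusted p = 0.0549) without DZNep replicate 1, which passes neither.

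INA (ENSG00000148798, chromosome 10, 103277138 to 103290346, plus strand) encodes alpha-internexin, a chain that copolymerizes with the neurofilaments. It had normalized counts of 305, 520, 481 and 345 in Control and 297, 290, 241 and 258 in DZNep replicates 1 to 4. The groups did not overlap, but Control replicate 1 was close to DZNep replicate 1. The mean went from 413 ± 104 to 271 ± 26.4 (SD, n = 4) and INA fell by 0.63 on the log2 scale (SE 0.20, adjusted p = 0.027, edgeR), with an exact permutation p of 0.0286. This call passed the adjusted p in 6 of 16 alternatives, and the adjusted p over all 16 ranged from 0.00575 to 0.0841. The lowest was with the replicate number as a block, where the log2 fold change was -0.61. The call was lost in every fit that left out a DZNep library (0.0597, 0.0523, 0.0841 and 0.0564 without replicates 1 to 4), and without Control replicate 2 (0.0634) or Control replicate 3 (0.0743).

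NEFL (ENSG00000277586, chromosome 8, 24950955 to 24956721, minus strand) encodes the light neurofilament chain, the core of the neurofilament. In normalized counts, it stood at 2892, 5209, 4056 and 3066 in Control and 4094, 4877, 4788 and 3324 in DZNep replicates 1 to 4. The Control libraries spanned all DZNep libraries. The means were 3806 ± 1067 and 4271 ± 722 (SD, n = 4), and the log2 fold change of 0.14 (SE 0.21) did not pass the test (adjusted p = 0.636, edgeR).

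NEFM (ENSG00000104722, chromosome 8, 24913758 to 24919098, plus strand) encodes the medium chain. The libraries gave it normalized counts of 5853, 2831, 2968 and 9002 in Control and 3126, 2473, 2482 and 4807 in DZNep replicates 1 to 4. Replicates 1 and 4 were high in each group and the groups overlapped, while DZNep was below Control in 4 of 4 pairs of the same number. The means were 5164 ± 2914 and 3222 ± 1100 (SD, n = 4), and the log2 fold change of -0.71 (SE 0.38) did not pass the test (adjusted p = 0.161, edgeR). With the replicate number as a block it was -0.59 and passed (adjusted p = 0.00198), and without Control replicate 4 it was -0.30 (adjusted p = 0.473).

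NEFH (ENSG00000100285, chromosome 22, 29480218 to 29491390, plus strand) encodes the heavy chain. Its normalized counts were 17, 10.7, 17 and 22.6 in Control and 39.9, 34.6, 32 and 39.4 in DZNep replicates 1 to 4. All DZNep libraries were above all Control libraries, at a level low for this family. The mean rose from 16.8 ± 4.84 to 36.5 ± 3.83 (SD, n = 4), a log2 fold change of 1.09 (SE 0.30, adjusted p = 0.016, edgeR), with an exact permutation p of 0.0286. NEFH passed the adjusted p in 16 of 16 alternatives, but its log2 fold change was 0.91 without Control replicate 2, under the fold threshold.

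**Figure D3:**
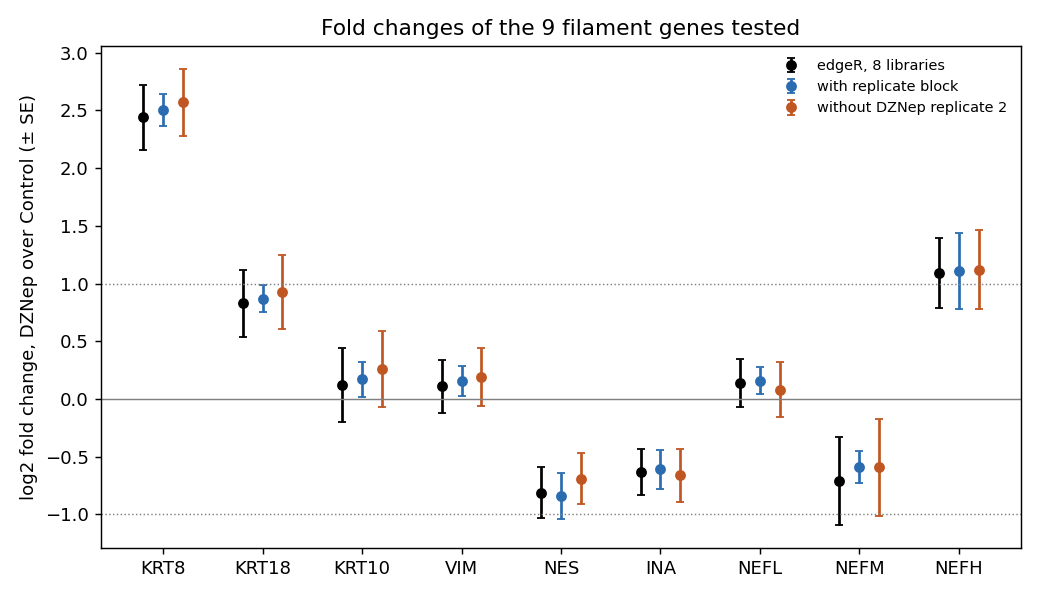
Log2 fold change of DZNep over Control (± SE) for the 9 filament genes tested, from edgeR on 8 libraries (black), with the replicate block (blue) and without DZNep replicate 2 (red), with dotted lines at the fold threshold. KRT8 lies at 2.44 to 2.57 in the 3 fits and NEFH at 1.09 to 1.12, while KRT10, VIM and NEFL lie near 0.

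Without DZNep replicate 2, 4 members passed the adjusted p (KRT8, KRT18, NES and NEFH). With the replicate block 6 did, as INA and NEFM passed too. The shares over all genes on the adjusted p alone were not computed for these fits. Past both thresholds, 1963 genes were higher and 2381 lower without DZNep replicate 2, and 2243 and 2736 with the block. The replicate number itself went with the level of several members. In both groups, replicates 1 and 4 lay above replicates 2 and 3 for 5 members (KRT8, KRT18, KRT10, VIM and NEFM) and below them for 1 (NEFL). How many of all genes tested showed the same split was not counted, so these counts describe the members only. The size of the difference, as the log2 ratio of means of replicates 1 and 4 over 2 and 3, was 1.01 in Control and 0.60 in DZNep-treated cells for KRT18, 1.36 and 0.68 for NEFM, and -0.64 and -0.38 for NEFL. Mitochondrial transcripts took 7.76% and 13.7% of the counts in Control replicates 1 and 4 but 3.02% and 3.16% in replicates 2 and 3, and 7.04% and 10.1% but 4.25% and 4.44% in the same DZNep replicates. The part of the mitochondrial share in these levels was not tested.

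Levels between genes were compared per length, as CPM per kb of the union of a gene's exons. In Control cells VIM had the highest level at 129, followed by NEFM at 38, NEFL at 25.8, KRT10 at 20.3 and KRT18 at 20.1. INA (3.39), KRT8 (1.4), NES (0.885), NEFH (0.118) and KRT19 (0.0131) came after. The neighbours from NEFM down to KRT18 overlapped in their libraries, as did KRT8 and NES, and so their order is not resolved. In DZNep-treated cells VIM was at 139, KRT18 at 35.6, NEFL at 28.4, NEFM at 23.2, KRT10 at 22.1 and KRT8 at 7.62. INA (2.19), NES (0.505), NEFH (0.252) and KRT19 (0.215, by its single high library) followed. Here the neighbours from KRT18 down to KRT10 overlapped, and KRT8 lay above INA in all 4 libraries where it had lain below INA in all 4 Control libraries. This change of order depends on the length: with the canonical transcript (1784 bases for KRT8, against 6881 for its exon union), KRT8 was already above INA in 3 of 4 Control libraries. The place of KRT18 depends on it too. With canonical transcripts KRT18 came next after VIM in both groups, at 43.7 in Control and 77.4 in DZNep-treated cells. It then overlapped NEFM in Control libraries, but not NEFL, the next gene, in DZNep libraries.

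The 4 keratins together made up 22.5%, 13.8%, 17.2% and 15.7% of the summed level of the 10 genes in Control replicates 1 to 4, and 24.8%, 22.4%, 23.1% and 29.4% in DZNep replicates 1 to 4. The keratin share was 17.3 ± 3.74% in Control and 24.9 ± 3.18% in DZNep-treated cells (SD, n = 4), and the groups overlapped only because Control replicate 1 lay just above DZNep replicate 2. With the longest transcript, the canonical transcript or no division by length, every DZNep library was above every Control library. The neuronal filaments made up 28.6 ± 3.45% and 21.1 ± 2.23%, with every DZNep library below every Control library. VIM held 53.7 ± 2.01% and 53.8 ± 2.04% per exon union, but 68 ± 1.51% and 64 ± 2.11% with canonical transcripts, where every DZNep library was below every Control library. These shares are descriptions without a test, since a gene that gains share takes it from the others.

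**Figure D4:**
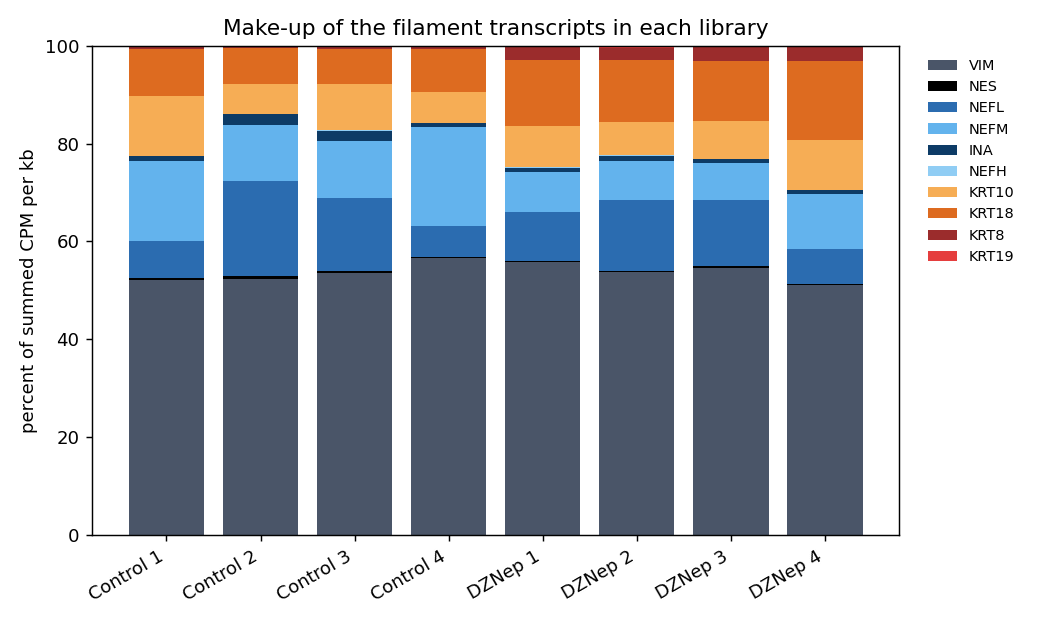
Percent of the summed level (CPM per kb of exon union) of the 10 filament genes that each gene holds, as stacked bars from 0 to 100 for each library. VIM fills 51.1% to 56.5% of each bar, and the keratins (orange and red) fill 13.8% to 22.5% in Control and 22.4% to 29.4% in DZNep libraries.

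The basic and acidic chains were unequal in level. KRT8 was the only type II chain among the members, and its level was 2.89%, 3.45%, 3.55% and 4.1% of the summed level of KRT18, KRT19 and KRT10 in Control replicates 1 to 4. In DZNep replicates 1 to 4 it was 13.6%, 12.8%, 15.7% and 11.5%, and all were above the Control libraries. The mean went from 3.5 ± 0.494% to 13.4 ± 1.77% (SD, n = 4). The size of this percentage rests on the length used for KRT8, and with canonical transcripts it was 8.46% and 29.9%, again without overlap. Against KRT18 alone, KRT8 stood at 7.04 ± 0.854% and 21.8 ± 3.04%.

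Among the neuronal chains, NEFH was 0.177 ± 0.041% of the summed level of NEFL, NEFM and INA in Control and 0.468 ± 0.043% in DZNep-treated cells (SD, n = 4), with no overlap. NEFM as a percent of NEFL varied most between libraries, at 219, 58.9, 79.3 and 318 in Control and 82.8, 55, 56.2 and 157 in DZNep replicates 1 to 4. Replicates 1 and 4 had the higher values in both groups.

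KRT8 and KRT18 share sequence with many processed pseudogenes, which can take reads from their parents where a read maps to both. Of 118 such genes listed (51 of KRT8 and 67 of KRT18), 80 had at most 3 counts in every library and 9 were tested. Of these 9, 3 were higher past both thresholds and 0 lower by edgeR or DESeq2 (1 at the adjusted p alone). With the replicate block, 4 were higher past both thresholds. The shares over all genes tested by edgeR without the block were 10.6% and 13.5%. KRT8P36 and KRT18P63 had few counts in Control cells and can pass the filter through the DZNep group, so the count is a description. KRT8P36 (chromosome 3, 138101478 to 138102917, minus strand) had 2, 4, 3 and 15 counts in Control and 131, 140, 132 and 113 in DZNep replicates 1 to 4. All DZNep libraries were above all Control libraries (log2 fold change 4.16, SE 0.49, adjusted p = 0.000138, edgeR). KRT18P63 (chromosome 4, 17911674 to 17912976, plus strand) went from 1, 5, 7 and 1 counts to 54, 63, 60 and 26 (log2 fold change 3.60, SE 0.47, adjusted p = 0.000258). The third pseudogene that rose was KRT8P52 (1.47, adjusted p = 0.045), whose adjusted p was 0.0585 without DZNep replicate 2. KRT8P12 went the other way, with 123, 206, 184 and 139 counts in Control and 106, 134, 125 and 88 in DZNep-treated cells, and fell by 0.77 on the log2 scale (adjusted p = 0.00528), under the fold threshold.

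**Figure D5:**
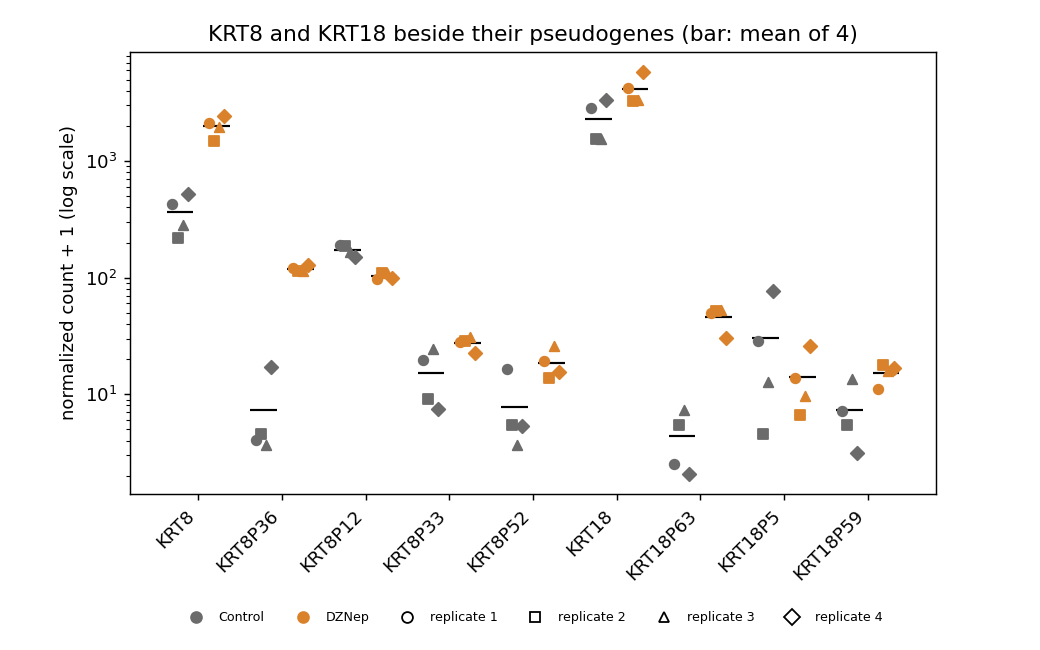
Normalized count + 1 (log scale) of KRT8, KRT18 and 7 of their pseudogenes in the 4 Control (grey) and 4 DZNep (orange) libraries, with a bar at the mean of 4. KRT8, KRT8P36 and KRT18P63 are above Control in all DZNep libraries, and KRT8P12 is below Control in all of them.

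The pseudogenes did not follow their parents in a fixed ratio. KRT8P36 was 0.725% to 3.09% of KRT8 in Control and 5.21% to 7.6% in DZNep libraries, while KRT8P12 was 28.7% to 85.1% and then 4.06% to 7.27%. All KRT8 pseudogenes together had 228 to 302 normalized counts in Control and 317 to 361 in DZNep libraries, which is 44.5% to 105% of KRT8 in Control and 13.7% to 21.5% in DZNep-treated cells. For KRT18 the summed pseudogenes were 2.9% to 4.77% and 2.46% to 4.24% of the parent. If all pseudogene counts were reads of KRT8, the sum of both would still be higher in every DZNep library than in every Control library. Between GENCODE 44 transcripts, KRT8P36 was 93.5% identical to KRT8 over 1435 aligned bases, with a longest identical run of 65 bases. KRT18P63 was 89.9% identical to KRT18 over 801 bases, with a longest run of 48. At the read length of 150 bases, 0 windows of the 9 tested pseudogenes matched their parent's canonical transcript without a mismatch. The counts of these genes remain uncertain, since the aligner's handling of mismatched reads was not examined.

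The other genes of the keratin family were mostly silent. Of 55 protein-coding keratin genes (27 on chromosome 12 and 28 on chromosome 17), 26 had at most 3 counts in every library and 5 had more than 3 in every library. Only 7 passed the filter on low counts, which a gene can pass through the group where it is high, and of these 4 were higher past both thresholds and 0 lower by edgeR (5 and 0 by DESeq2, and 0 lower at an unadjusted p under 0.05). The shares past both thresholds over all genes tested were 10.6% and 13.5% by edgeR. KRT17, KRT27 and KRT86 had few counts in Control cells, so the count over the 7 is a description only. KRT17, an acidic keratin of basal and appendage epithelium, had a log2 fold change of 2.78 (adjusted p = 0.00118), and 2.32 without DZNep replicate 2, which held its highest value. KRT86, a hair keratin, had 2.97 (adjusted p = 0.00581), and KRT27, an inner root sheath keratin, had at most 3 counts in each Control library and 12 to 27 in DZNep libraries, at least 4.74-fold higher against a floor of 3 counts per library. KRT222, a divergent acidic keratin, and KRT18 passed the adjusted p alone. Without DZNep replicate 2, 5 keratin genes were higher past both thresholds.

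Among 10 further intermediate filament genes, 9 were tested, of which 3 were higher and 1 was lower past both thresholds (median log2 fold change -0.16). Over all genes tested the shares were 10.6% and 13.5%, with a median of -0.03. Genes with few counts in Control cells, such as DES, can pass the filter through the DZNep group. DES (desmin, the filament of muscle) rose from 6.61 ± 4.65 to 59.2 ± 24.2 normalized counts (SD, n = 4, log2 fold change 3.18, adjusted p = 0.00143, edgeR). GFAP, the filament of astrocytes, rose from 38.4 ± 6.19 to 260 ± 17.5 (2.74, adjusted p = 1e-05), and PRPH (peripherin, of peripheral neurons) from 71.8 ± 22 to 265 ± 86.5 (1.85, adjusted p = 0.000903). Like VIM, these 3 are type III filaments, and VIM did not pass the test. SYNM (synemin, a large linker-like filament protein) fell by 1.73 on the log2 scale (adjusted p = 0.003). Without DZNep replicate 2, 4 of these genes were higher and 1 was lower. With the replicate block 2 were lower, as SYNC (syncoilin, -1.17) went from an adjusted p of 0.062 to 0.0284.

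Keratin filaments are anchored at desmosomes by plakins and armadillo proteins. Of 21 desmosome and linker genes, 18 were tested, of which 7 were higher past both thresholds and 0 lower (8 and 0 by DESeq2, and 3 lower at an unadjusted p under 0.05). On the adjusted p alone 10 were higher and 2 lower (median log2 fold change 0.81), and with the replicate block 5 were lower. The shares over all genes tested without the block were 10.6% and 13.5% past both thresholds, and 19.1% and 21.8% on the adjusted p alone (median -0.03). DSG1 and DSG3 had few counts in Control cells and can pass the filter through the DZNep group, so these counts are a description. DSG1, a desmosomal cadherin of upper epidermis, had 0, 0, 2 and 0 counts in Control and 50, 82, 71 and 32 in DZNep replicates 1 to 4, at least 15.8-fold higher against the floor. DSC1 and DSG3, cadherins of the same junction, had log2 fold changes of 3.20 (adjusted p = 0.000247) and 3.09 (adjusted p = 0.000229). The summed level of the 21 genes was 992 to 1672 CPM in Control and 1066 to 1689 in DZNep libraries, so the groups overlapped in the sum. Without DZNep replicate 2, 7 were higher past both thresholds and the same number on the adjusted p alone.

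Markers of the cell types in which these filaments are known moved as follows. Over all genes tested, 10.6% were higher and 13.5% lower past both thresholds. On the adjusted p alone the shares were 19.1% and 21.8%, and the median log2 fold change was -0.03. Markers with few counts in Control cells, here and in the lists that follow, can pass the filter through the DZNep group. The counts are therefore descriptions. Of 20 epithelial markers, 16 were tested, of which 10 were higher and 1 was lower past both thresholds (12 and 1 on the adjusted p alone, median log2 fold change 1.32), and their summed level was 29.4 to 38.5 CPM in Control and 93.7 to 104 in DZNep libraries. PRSS8 (a membrane serine protease), TJP3 (a tight junction scaffold) and MUC1 (a mucin) had log2 fold changes of 3.52, 2.38 and 2.30, the same direction as KRT8 and KRT18. ESRP2, a splicing factor of epithelia, was the marker that was lower (-1.05, adjusted p = 0.034), a call that was lost without DZNep replicate 2 (-0.99, adjusted p = 0.0848), when 11 epithelial markers were higher and 0 lower. With the replicate block 11 were higher and 1 was lower. All 20 mesenchymal markers were tested, and 2 were higher and 2 lower past both thresholds, with SNAI1 at 1.86, TWIST2 at -2.51 and ACTA2 at -2.75 (median log2 fold change -0.00, and 0.16 without DZNep replicate 2). Their summed level was 688 to 895 CPM in Control and 781 to 1013 in DZNep libraries, overlapping as VIM did. The part of these cell types in the filament levels was not tested.

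The list of 22 neuronal markers holds PRPH, counted above among the filament genes, and REST, a repressor of neuronal genes rather than a marker of neurons. REST (means of 2618 and 3149 normalized counts, adjusted p = 0.483, edgeR) enters the median and the summed level. Of the 22, 18 were tested, of which 6 were higher and 2 lower past both thresholds (median log2 fold change -0.05). The shares over all genes tested were 10.6% and 13.5% (median -0.03). Without DZNep replicate 2, 7 were higher and 1 was lower (median 0.20), and the summed level over all libraries overlapped, at 415 to 505 CPM in Control and 435 to 501 in DZNep libraries. DCX and MAP2, microtubule proteins of neurons, had log2 fold changes of 3.26 (adjusted p = 0.000138) and 2.28 (adjusted p = 0.00163), whereas RBFOX3, a splicing factor of mature neurons, had -3.39 (adjusted p = 0.000449). The neuronal markers thus moved in both directions, as did NEFH and INA. Of 8 neural progenitor markers, 6 were tested, and FABP7 (a fatty acid binding protein of radial glia), with at most 2 counts in Control and 20 to 44 in DZNep libraries, was at least 8.45-fold higher. SOX2, a transcription factor of progenitors, averaged 1201 and 1080 normalized counts (log2 fold change -0.18, adjusted p = 0.551). Of the 12 kidney tubule markers, 6 were tested and 2 were higher (SLC12A3, with means of 2.53 and 15.6 normalized counts, and CUBN, with 8.86 and 39.1), while PAX2 fell by 0.54 on the log2 scale (adjusted p = 0.0228, and 0.0641 without DZNep replicate 2), and their summed level was 35.4 to 48 CPM in Control and 33.5 to 39.5 in DZNep libraries. Of 10 adrenal and chromaffin markers, 2 were tested and 0 passed both thresholds by edgeR or DESeq2. PNMT, an enzyme of adrenaline synthesis, was higher at an unadjusted p under 0.05 (log2 fold change 0.89, adjusted p = 0.0711, and 0.0184 with the replicate block).

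The 2 members that fell, NES and INA, are shown with their promoters beside that of VIM, whose transcript level did not pass the test. The sequences are the 250 bases before the annotated start (RefSeq, GRCh38.p14), 5′ to 3′ on the gene's strand, and capitals mark the GC box motif GGGCGG in either orientation. They lie at chr10:103276888-103277137 (INA, plus strand), chr1:156677408-156677657 (NES, minus strand) and chr10:17227991-17228240 (VIM, plus strand).
INA: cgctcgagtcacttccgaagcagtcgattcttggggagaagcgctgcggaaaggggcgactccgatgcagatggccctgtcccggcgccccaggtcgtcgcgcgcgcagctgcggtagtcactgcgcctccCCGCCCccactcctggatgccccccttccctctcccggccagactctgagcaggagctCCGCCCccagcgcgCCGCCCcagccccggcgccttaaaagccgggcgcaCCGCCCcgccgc
NES: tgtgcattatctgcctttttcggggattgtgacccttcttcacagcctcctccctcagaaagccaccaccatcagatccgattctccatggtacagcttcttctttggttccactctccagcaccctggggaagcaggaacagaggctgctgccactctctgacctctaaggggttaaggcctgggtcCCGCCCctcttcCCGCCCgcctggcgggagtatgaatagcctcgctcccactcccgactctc
VIM: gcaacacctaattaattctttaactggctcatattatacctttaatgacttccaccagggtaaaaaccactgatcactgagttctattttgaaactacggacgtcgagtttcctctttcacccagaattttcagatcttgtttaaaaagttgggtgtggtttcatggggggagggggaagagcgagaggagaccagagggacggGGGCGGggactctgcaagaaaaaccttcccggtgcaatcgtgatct

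Entries were matched for 5 of the 10 members (INA, NES, VIM, KRT10 and KRT8), and the KRT8 entry starts 21393 bases away from the canonical start, so its sequence is not shown. The GC box occurred 4 times in the INA window, 2 times in that of NES, 1 time in that of VIM and 0 times in those of KRT10 and KRT8, and 42.6% of 35116 windows of the same length held it. TATAAA and CCAAT, searched on both strands, occurred 1 time each in the KRT10 window and in none of the other 4, and 10.7% and 32% of all windows held them. TGANTCA (in 6.57% of all windows) and CAGGTG (in 17.5%) were in none of the 5. The GC content was 72.8% for INA, 58% for NES, 46% for VIM and 34.8% for KRT10. A motif match describes the letters of these windows only.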

How the data were processed

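The RNAseq libraries of HEK293T cells, 4 Control and 4 DZNep, were grouped by the treatment in the sample labels. Azenta extracted the RNA and sequenced it. Per the labels and methods, the authors used Trimmomatic 0.36 to trim the paired reads of 150 bases and STAR 2.5.2b to map them to GRCh38. Reads unique to the exons of a gene were then counted with featureCounts (Subread 1.5.2). They deposited these counts for 57500 genes, without normalization. A signal table that the authors deposited holds normalized counts of 19118 genes, and each of its values was checked to be a count over the size factor of that library. The annotation release, library type and strandedness are not given in the sources used here, so overlapping genes (such as VIM with VIM-AS1, INA with NT5C2, NEFM with ENSG00000272163 and NEFL with ENSG00000272157) are uncertain. There were 0 per-sample columns left unused.

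Counts were tested with edgeR 4.0.16 (R 4.3.3, TMM, filterByExpr, quasi-likelihood test, Benjamini-Hochberg over 19171 genes), which was first tested on simulated data. DESeq2 1.42.0, limma 3.58.1, other scalings and filters, other gene lengths, the replicate block and leaving out each library were alternatives. Canonical lengths and list counts without DZNep replicate 2 were added after seeing the data. Permutation tests used log2(normalized count + 1) and all 70 arrangements. Replicates differed by more than sampling noise (chi-square per degree of freedom of at least 26.9). The paper calls them biological replicates but does not describe separate cultures, so p-values measure the spread between these libraries. Libraries that share a number deviated together from their group means (correlations of 0.14, 0.49, 0.43 and 0.67 for replicates 1 to 4). The main fit and the fits that left out a library nevertheless held no term for the number. The replicate block was run as an alternative, and its values for members are given with KRT18, INA and NEFM. Intervals and floors cover counting error only. Symbols were matched for 56410 genes.

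The members and lists were chosen with earlier results of these data known, so no p-value was adjusted over them alone. Named genes are the members, at most the 3 called genes of each list with the largest log2 fold change, and markers at or near 0. KRT222, KRT18P63, KRT8P12, ESRP2, SOX2, PAX2, LRP2, EMX2, REST, SYNC, PNMT, CD3E and the genes that set DZNep replicate 2 apart were named after their values were seen. The lists were written from general knowledge, and a count in a list is a description.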

Additional observations from a re-analysis of the deposited data

Results flagged for a closer look

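The KRT19 value of 74.1 normalized counts in DZNep replicate 2 was far from the other 3 DZNep libraries (0.864 to 1.12), and its gap to the nearest of them took a share of 0.996 of the range of the group, over the limit that Dixon's test sets for 4 samples. It was the 1 such value among 20 groups of 4 libraries (10 genes in each of 2 treatments), where chance gives about 1 in 20.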

How the results depend on the processing

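Of the 9 members tested, KRT8 and NEFH passed the adjusted p under all 16 alternatives, NES under 15, KRT18 under 9, INA under 6 and NEFM under 1, and KRT10, VIM and NEFL under 0. Leaving out 1 library at a time gave 1 to 3 members higher (2 with all libraries: 1 without Control replicate 2, where NEFH had 0.91, and 3 without Control replicate 4, where KRT18 had 1.05) and 0 to 1 lower (NES without DZNep replicate 3). With no fold threshold, 2 members were lower, and 3656 genes of all tested were higher and 4171 lower, in place of 2041 and 2589. With at least 10 reads in every library 1141 genes were higher, of 15870 tested. With every gene of at least 1 read, 3 members were higher, as KRT19 was then tested, and 2965 of 40246 genes were higher. The KRT19 call rests on a single library, with 92 counts in DZNep replicate 2 and at most 2 in each of the others. The signs of KRT10 (-0.09 without Control replicate 2 and -0.09 without DZNep replicate 4) and VIM (-0.01 without Control replicate 2) turned, and the cause was not tested. Over the libraries left out, the log2 fold change ranged from 2.26 to 2.67 for KRT8, from -1.02 to -0.69 for NES, from 0.91 to 1.26 for NEFH, from -0.09 to 0.42 for KRT10 and from -0.01 to 0.33 for VIM.

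With the replicate block, which uses the pairing by number, 2 members were higher and 0 lower past both thresholds as without it, NEFM passed the adjusted p as an added call (-0.59), and no other call of a member changed, while 2243 genes of all tested were higher and 2736 lower. In the gene lists the block added calls on the adjusted p: pseudogenes higher went from 3 to 5, epithelial markers higher from 12 to 15, neuronal markers lower from 2 to 4, mesenchymal markers lower from 2 to 3, progenitor markers higher from 1 to 3, and kidney tubule markers from 2 to 3 higher and from 1 to 2 lower. The shares over all genes on the adjusted p alone were not computed with the block, so the added calls cannot be read as particular to these lists. The keratin share, 17.3% in Control and 24.9% in DZNep-treated cells, was 11% and 18.2% without division by length, and 21.7% in DZNep-treated cells with the longest transcript. KRT8 as a percent of KRT18, KRT19 and KRT10, 3.5% and 13.4%, was 6.79% and 25% with the longest transcript, 8.46% and 29.9% with the canonical transcript, and 9.18% and 33.9% without division by length. These values follow the length used for KRT8. Leaving out DZNep replicate 2 took the epithelial markers called lower from 1 to 0 and the neuronal markers from 2 to 1. Other scalings and filters moved the median of all genes by at most 0.09 on the log2 scale. NEFH and the keratins outside the members rest on few counts, which limits how firmly their levels are known.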
